A study of Homo sapiens with 9 samples.

Results

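The transcription factors described here are 10 regulators of epithelial-mesenchymal transition (EMT), chosen by symbol and not by a threshold on their values: *SNAI1*, *SNAI2*, *SNAI3*, *ZEB1*, *ZEB2*, *TWIST1*, *TWIST2*, *TCF3*, *TCF4* and *PRRX1*. They were read out in every library from the 60708 genes of the count files. In the libraries labelled as *SNAI1* knockouts, *TCF4*, *TWIST1* and *TWIST2* were expressed where the wild-type libraries held 0 to 6 counts, *ZEB1* was lower and *ZEB2* higher. *SNAI2* moved in opposite directions in the 2 knockout clones, and *SNAI1* itself was not lower.

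EMT is the programme by which epithelial cells loosen their junctions and gain motility, and it runs in embryos, in wounds and in carcinomas. The SNAI zinc finger proteins and the ZEB zinc finger homeodomain proteins bind E-box DNA motifs and repress junction genes such as *CDH1*, which encodes E-cadherin. The TWIST proteins are basic helix-loop-helix (bHLH) factors that bind E-boxes as dimers, often with an E protein such as those encoded by *TCF3* and *TCF4*, while the ID proteins lack the DNA-binding region and tie up E proteins. *PRRX1* encodes a homeodomain protein of mesenchyme that can drive EMT as well.

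MDA-MB-231 is an established triple-negative breast cancer cell line of the basal B type. The 9 RNA-sequencing libraries are all labelled as this line, 3 with the genotype label WT and 3 for each of the clones CS16 and CS19, whose genotype label is *SNAI1* knockout (KO). All cells were untreated and grown in DMEM with fetal bovine serum. Each knockout was 1 single-cell clone, made with Cas9, a pool of 3 guide RNAs at exon 1, exon 2 and the boundary of exon 2 with intron 2, a repair plasmid and puromycin selection. The labels number the libraries but do not call them separate cultures, so the p-values measure the spread between libraries, which may be technical. Clone-to-clone variation, selection, any difference in the cells behind the labels and the loss of *SNAI1* cannot be told apart with these groups.

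The libraries held 19527195 to 28627777 counted read pairs. The library WT-2 was unlike its fellow WT libraries (Pearson r of log2(CPM + 1) of 0.952 with WT-1 and 0.948 with WT-3, against 0.995 between the latter), and values without it are given where they change a result. The same r was 0.749 to 0.819 between WT and clone libraries and 0.987 to 0.989 between CS16 and CS19 libraries. Levels in CPM (counts scaled to a common library size, with TMM factors) are used for single genes. A floor of 3 counts, below which a gene was taken as not detectable, lay between 0.0982 and 0.171 CPM, and this floor covers counting error only.

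The labelled cell type was checked against markers before the factors were read. The 12 markers of MDA-MB-231 and basal B lines summed to 10709 to 13661 CPM in WT but to 555 to 576 CPM in CS16 and 525 to 564 CPM in CS19. Among them, *S100A6* had 48439 to 112919 counts in WT and at most 1 in the clones, and *CD44* had 11142 to 13853 and at most 2. The 12 mammary epithelial markers summed to 1467 to 2160.0 CPM in WT, 132 to 148 CPM in CS16 and 133 to 150.5 CPM in CS19, with *KRT19* at no more than 1 count in the clones. The lower sum came mainly from *KRT8* (means of 734.8, 2.87 and 1.72 CPM in WT, CS16 and CS19), *KRT18* and *KRT19*. *TRPS1* was instead higher in the clones (18.0, 72.9 and 61.2 CPM), and *TFAP2C* was at a like level (6.91, 5.53 and 6.63 CPM). The 3 genes of 9p21, *CDKN2A*, *CDKN2B* and *MTAP*, had 0 counts in all WT libraries and summed to 168 to 175 CPM in CS16 and 164 to 182 CPM in CS19. Several defining markers of the labelled line were thus near 0 in the libraries labelled CS16 and CS19, while *VIM*, *EGFR* and *MSN* were lower but present, and these libraries are named by their labels only.

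Markers of other tissues differed as well. The 8 embryonic kidney markers summed to 34.5 to 68.2 CPM in WT, 47.3 to 50.4 in CS16 and 49.2 to 50.4 in CS19, but *SALL1* and *HOXD11* were at 0 counts in WT and at 157 or more in the clones, while *PAX8* had 202 to 452 counts in WT and at most 2 in the clones. The 6 neuroendocrine markers summed to 66.9 to 99.4 CPM in WT, 21.96 to 27.5 in CS16 and 38.7 to 41.5 in CS19. The lower sum came from *ENO2* (a mean of 75.4 CPM in WT, 1.57 in CS16 and 9.21 in CS19), while *SYP* was higher in the clones (1.81, 16.4 and 23.7 CPM), and *CHGB* and *INSM1* were at 0 counts in WT and at 14 or more in each clone library. The 6 prostate markers lay at 30.1 to 39.4, 44.6 to 47.5 and 47.2 to 51.4 CPM, and the 6 haematopoietic ones at 0.444 to 1.03, 2.47 to 3.01 and 2.95 to 3.29 CPM. These differences move with every comparison of a clone with WT given here, and their part in the results was not tested. In bulk RNA, fewer cells of a kind and less RNA per cell cannot be told apart.

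Sequences are shown first for a targeted site and for the promoters on which the results bear. The third guide was aimed at the boundary between exon 2 and intron 2 of *SNAI1*, which in the GRCh38 reference reads as follows on the plus strand at chr20:49984332-49984371, with the last 20 bases of exon 2 in capitals.
SNAI1 exon 2 to intron 2: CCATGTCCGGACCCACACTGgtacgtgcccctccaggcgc
Each count covers the whole gene, so it does not show whether this site was altered in a library. Whether the counts of *SNAI1* came from an edited or an unedited locus was not tested.

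Promoter windows came from RefSeq on GRCh38.p14 and spanned 250 bases before to 50 bases after a transcription start site. They matched 6 of the 10 factors (*ZEB1*, *ZEB2*, *TWIST2*, *TCF3*, *TCF4* and *PRRX1*). The letters CAGGTG, the E-box that SNAI and ZEB proteins favour, were searched on both strands, where the other strand reads CACCTG. This motif is contained in the wider E-box CANNTG, which was in 68.7% of all 35116 windows of that length, against 20.6% for CAGGTG. It lay in 2 of 7 windows of *ZEB1*, in neither of the single windows of *ZEB2* and *TWIST2*, and in none of the 10 windows of *TCF4*. Both *ZEB1* windows with a match are shown with the single windows of *ZEB2*, its paralog that moved the other way, and of *TWIST2*, which had no read in WT, and capitals mark CAGGTG or CACCTG.
ZEB1, chr10:31318167-31318466, plus strand: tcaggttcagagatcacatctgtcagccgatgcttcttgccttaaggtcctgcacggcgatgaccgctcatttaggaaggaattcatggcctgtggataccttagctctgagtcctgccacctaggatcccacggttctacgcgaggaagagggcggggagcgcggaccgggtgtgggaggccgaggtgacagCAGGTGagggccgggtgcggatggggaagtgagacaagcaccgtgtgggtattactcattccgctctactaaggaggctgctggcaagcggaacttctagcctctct
ZEB1, chr10:31318966-31319265, plus strand: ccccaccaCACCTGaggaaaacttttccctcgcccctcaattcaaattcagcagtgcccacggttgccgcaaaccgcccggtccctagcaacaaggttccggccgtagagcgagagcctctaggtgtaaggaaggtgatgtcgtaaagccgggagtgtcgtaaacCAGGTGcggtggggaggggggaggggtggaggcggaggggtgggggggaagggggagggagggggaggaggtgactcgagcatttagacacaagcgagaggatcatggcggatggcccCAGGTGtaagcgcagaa
ZEB2, chr2:144520070-144520369, minus strand: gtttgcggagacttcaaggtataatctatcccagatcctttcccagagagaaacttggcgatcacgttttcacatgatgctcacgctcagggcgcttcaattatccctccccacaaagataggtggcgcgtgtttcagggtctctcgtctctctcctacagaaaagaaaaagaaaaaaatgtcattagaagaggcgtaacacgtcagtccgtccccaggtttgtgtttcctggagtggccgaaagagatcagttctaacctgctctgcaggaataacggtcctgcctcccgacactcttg
TWIST2, chr2:238847835-238848134, plus strand: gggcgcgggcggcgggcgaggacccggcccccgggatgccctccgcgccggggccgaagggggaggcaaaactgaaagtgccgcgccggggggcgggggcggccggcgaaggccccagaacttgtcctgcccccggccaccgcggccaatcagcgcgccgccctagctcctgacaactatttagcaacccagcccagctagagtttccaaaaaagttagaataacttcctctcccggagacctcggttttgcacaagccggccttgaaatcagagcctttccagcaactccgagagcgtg
In the first *ZEB1* window the motif began 57 bases before the start site (position -57), and in the second at -242, -85 and 34. The *TWIST2* window was the richer in G and C (66.7%, with 29 CG pairs) and that of *ZEB2* the poorer (49.0%, 14 CG pairs), against a median of 58.7% over all windows. A match of letters is a description and does not show binding.

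*SNAI1* (ENSG00000124216.4), the targeted gene, lies on the plus strand at chr20:49982980-49988886 (GRCh38, as are all gene positions here). Its count was 16, 38 and 21 in WT-1 to WT-3, 26, 40 and 49 in CS16-1 to CS16-3, and 57, 94 and 94 in CS19-1 to CS19-3. CS19 lay above every WT library, while CS16, in CPM, lay within the WT range, whose top was WT-2. In CPM the means were 1.35 ± 0.728 in WT, 1.71 ± 0.378 in CS16 and 3.25 ± 0.757 in CS19 (SD, n = 3). The level in CS19 exceeded that in CS16 by 1.89-fold, with a log2 fold change of CS16 over CS19 of -0.92 and separate ranges (standard error 0.235, Benjamini-Hochberg adjusted p = 0.0106 in edgeR's quasi-likelihood test). Against WT the difference passed the test for CS19, at 1.32 on the log2 scale (SE 0.418, adjusted p = 0.031 in the same test by edgeR), and did not for CS16, with 0.39 (adjusted p = 0.474). Leaving out WT-2 brought CS16 past the threshold as well, at a log2 fold change of 0.88 and an edgeR adjusted p of 0.0386. The call in CS19 was lost without WT-1, WT-3, CS19-2 or CS19-3 (edgeR adjusted p of 0.0675 to 0.101). The libraries labelled knockout thus held no less *SNAI1* RNA than those labelled WT, and all directions below follow the labels alone.

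*SNAI2* (ENSG00000019549.13, chr8:48917598-48921740, minus strand), which encodes SLUG, was the most abundant SNAI gene in WT. Its 3 WT libraries lay at 35.4, 25.01 and 39.3 CPM, the CS16 libraries at 77.7, 72.8 and 70.7, and the CS19 libraries at 3.18, 5.07 and 2.62. The groups did not overlap, CS16 being above and CS19 below WT. *SNAI2* was 2.27-fold higher in CS16 than in WT (log2 fold change 1.18, standard error 0.208, Benjamini-Hochberg adjusted p = 0.00221 in edgeR's quasi-likelihood test, 3 of 3 libraries) and 8.92-fold lower in CS19 (log2 fold change -3.16, standard error 0.324, adjusted p = 0.000144, 3 of 3 libraries). Set directly against each other, the clones differed by 20.6-fold, or 4.36 on the log2 scale (SE 0.161, adjusted p = 8.91e-10 in edgeR's test). Of the 9 factors tested, it was the only 1 that passed with opposite signs in the 2 clones.

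*SNAI3* (ENSG00000185669.6, chr16:88677688-88686507, minus strand), the third SNAI gene, had counts of 16, 45 and 19 in WT, 43, 35 and 67 in CS16 and 101, 93 and 103 in CS19. As for *SNAI1*, the top WT library was WT-2, at 2.91 times the mean of the other WT libraries in CPM, and CS19 lay above all others. The log2 fold change against WT was 1.51 in CS19 (standard error 0.458, Benjamini-Hochberg adjusted p = 0.0258 in edgeR's quasi-likelihood test), 0.61 in CS16 (adjusted p = 0.315) and -0.88 for CS16 over CS19 (standard error 0.215, adjusted p = 0.00789). Without WT-2 the value for CS16 became 1.29 with an edgeR adjusted p of 0.00368 and that for CS19 2.19, and the call in CS19 was lost without WT-1, WT-3, CS19-1 or CS19-2 (0.0657 to 0.0743). The gene overlaps *SNAI3-AS1* on the opposite strand over 177 exon bases (10.2% of its exons), and pairs were counted without strand, so pairs that overlap exons of both genes are left out of the counts of both. *SNAI3-AS1* had 44 to 82 counts in WT, 145 to 167 in CS16 and 196 to 359 in CS19, the same order of groups.

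The make-up of the SNAI family differed between the clones. On the per-length scale of TPM (counts per base of exon, scaled to the same sum in each library), *SNAI2* held 85.5% ± 10.4 of summed SNAI TPM in WT, 90.9% ± 1.76 in CS16 and 20.4% ± 3.80 in CS19 (SD, n = 3). In CS19 *SNAI3* held 43.7% ± 7.26 and *SNAI1* 35.9% ± 5.45, against 7.46% ± 5.87 and 7.01% ± 4.57 in WT. The summed level was 37.5 ± 2.62 TPM in WT, 77.4 ± 12.3 in CS16 and 16.3 ± 4.17 in CS19, and the ranges of these 3 groups were apart. The number of *SNAI2* counts per *SNAI1* count was 44.8, 11.5 and 36.4 in WT, 61.0, 38.2 and 36.3 in CS16 and 1.23, 1.24 and 0.851 in CS19.

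**Figure D1:**
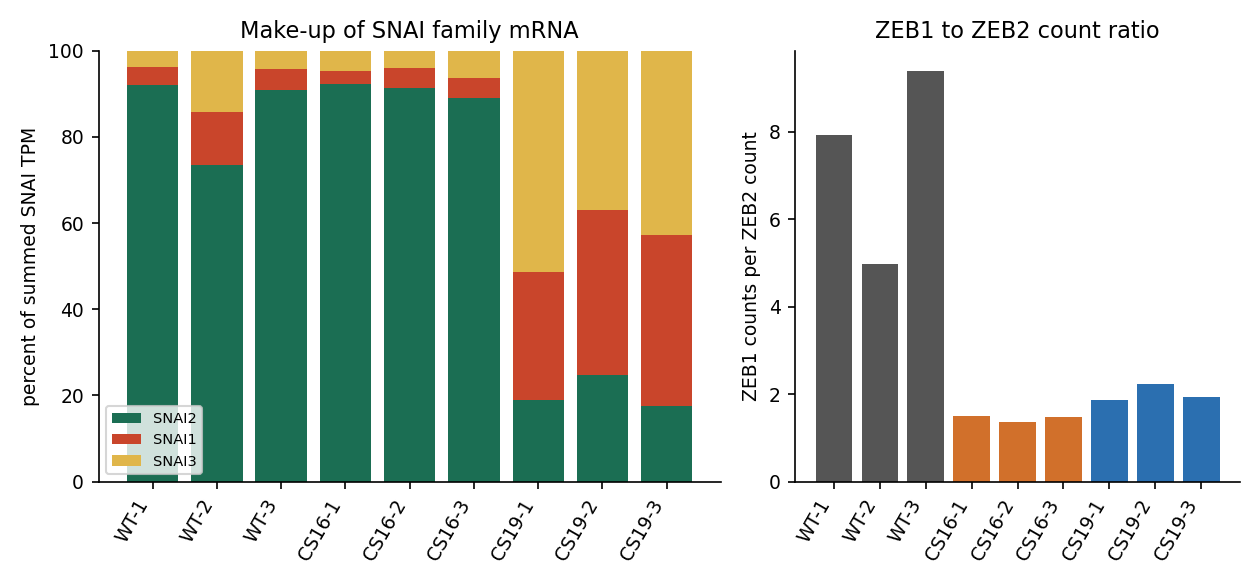
Left, the share of summed SNAI TPM (percent, y axis) held by SNAI2, SNAI1 and SNAI3 in each of the 9 libraries (x axis); right, ZEB1 counts per ZEB2 count in the same libraries, coloured by label. SNAI2 holds 73.5% or more in every WT and CS16 library and 24.7% or less in CS19, and the ZEB ratio is 4.98 or more in WT and 2.22 or less in the clones.

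The 2 ZEB genes moved in opposite directions. *ZEB1* (ENSG00000148516.23, chr10:31318495-31529814, plus strand) fell from 130.6, 77.9 and 120.9 CPM in WT to 52.0, 41.2 and 51.2 CPM in CS16 and 45.2, 49.8 and 44.4 CPM in CS19. All 6 clone libraries lay below the lowest WT library, which was again WT-2. The log2 fold change was -1.16 in CS16 (2.23-fold lower, standard error 0.239, Benjamini-Hochberg adjusted p = 0.00471 in edgeR's quasi-likelihood test) and -1.20 in CS19 (2.30-fold lower, standard error 0.230, adjusted p = 0.00333). No difference between the clones passed the test (log2 fold change 0.05, standard error 0.0941, adjusted p = 0.768 in edgeR). *ZEB1* shares 396 exon bases (4.58%) with *ZEB1-AS1* on the opposite strand, which had 75 to 98 counts in WT and 61 to 95 in the clones, and the gene ENSG00000285781 within it, with no shared exon base, had 32 to 134 counts in WT and 6 to 26 in the clones.

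*ZEB2* (ENSG00000169554.22, chr2:144364364-144521057, minus strand) rose from 16.5, 15.6 and 12.9 CPM in WT to 34.9, 30.01 and 34.6 CPM in CS16 and 24.2, 22.4 and 22.8 CPM in CS19. The 3 groups did not overlap, CS16 being the highest. Its log2 fold change was 1.17 in CS16 (2.26-fold, standard error 0.195, Benjamini-Hochberg adjusted p = 0.00168 in edgeR's quasi-likelihood test) and 0.66 in CS19 (1.58-fold, standard error 0.190, adjusted p = 0.0206), and CS16 exceeded CS19 by 0.51 (standard error 0.0888, adjusted p = 0.000751). The call in CS19 was lost without WT-3 or without any 1 CS19 library, at edgeR adjusted p values of 0.0517 to 0.074, and with the replicate number as a block (0.0506). *ZEB2-AS1*, which overlaps 1299 of its exon bases, had 0 to 7 counts.

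The ratio of *ZEB1* to *ZEB2* counts, which needs no scaling between libraries, was 7.92, 4.98 and 9.39 in WT, 1.49, 1.37 and 1.48 in CS16 and 1.87, 2.22 and 1.95 in CS19. It fell from a mean of 7.43 ± 2.24 to 1.45 ± 0.0646 and 2.01 ± 0.187 (SD, n = 3), with all 3 groups apart. *ZEB1* nonetheless remained the more abundant transcript per length, at 95.4%, 81.3% and 85.8% of summed ZEB TPM in WT, CS16 and CS19. These shares depend on the exon lengths used, as given below. Summed ZEB TPM was 42.5 ± 10.9 in WT, 21.5 ± 4.99 in CS16 and 19.1 ± 2.76 in CS19.

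Both TWIST genes were below the floor of 3 counts in every WT library and above it in every clone library. *TWIST1* (ENSG00000122691.13, chr7:19020991-19117636, minus strand) had 2 counts in each WT library. It stood at 0.0987, 0.114 and 0.103 CPM in WT, 5.64, 5.25 and 4.22 in CS16 and 3.14, 2.47 and 3.01 in CS19, and no groups overlapped. The rate in CS16 was 47.5 times that in WT and the rate in CS19 27.5 times (exact 95% intervals of 21.6 to 130.4 and 12.4 to 75.8, which cover counting error only). The fitted log2 fold changes were 5.53 and 4.74 (Benjamini-Hochberg adjusted p = 1.81e-05 and 3.23e-05 in edgeR's quasi-likelihood test, each in 3 of 3 libraries). The level in CS16 was 1.74-fold that in CS19, or 0.80 on the log2 scale (SE 0.178, adjusted p = 0.00455 in edgeR). An unnamed gene on the opposite strand shares 141 exon bases with *TWIST1* and had 0 counts in WT and 2 to 8 in the clones.

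*TWIST2* (ENSG00000233608.4, chr2:238848032-238910534, plus strand) had 0 counts in all 3 WT libraries. It stood at 3.48, 5.58 and 3.58 CPM in CS16 and at 2.91, 2.43 and 3.24 in CS19. Every clone library was thus above every WT library. Against the floor of 3 counts per library it was at least 26.7-fold higher in CS16 and at least 18.1-fold higher in CS19 than in WT (Benjamini-Hochberg adjusted p = 0.00022 and 0.000171 in edgeR's quasi-likelihood test). The difference between the clones did not pass, at 0.54 on the log2 scale (SE 0.213, adjusted p = 0.0788 in edgeR). Per length the 2 genes were at like levels in the clones, *TWIST1* holding 53.2% ± 6.75 of summed TWIST TPM in CS16 and 48.5% ± 1.87 in CS19 (SD, n = 3). Summed TWIST TPM was 0.170 ± 0.0276 in WT, 14.8 ± 2.05 in CS16 and 8.95 ± 0.683 in CS19.

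*TCF4* (ENSG00000196628.20, chr18:55222185-55664787, minus strand), an E protein gene not to be confused with the Wnt effector *TCF7L2* of like nickname, was near the floor in WT and abundant in both clones. Its counts were 6, 2 and 4 in WT, 1676, 1669 and 2000 in CS16 and 1188, 1316 and 1784 in CS19. That corresponded to 0.205 ± 0.0909 CPM in WT, 80.4 ± 1.48 in CS16 and 56.5 ± 2.25 in CS19 (SD, n = 3), with no overlap between any of the groups. The rate relative to WT was 384 in CS16 (exact 95% interval 219 to 743) and 271 in CS19 (155 to 524). The log2 fold changes were 8.58 (standard error 0.316, Benjamini-Hochberg adjusted p = 4.29e-06 in edgeR's quasi-likelihood test) and 8.08 (standard error 0.322, adjusted p = 3.81e-06), and 0.50 for CS16 over CS19 (standard error 0.0643, adjusted p = 6.78e-05). Within the gene, ENSG00000267284 on the opposite strand, which shares no exon base with it, had 0 counts in WT and 30 to 61 in the clones, and *TCF4-AS1* had 0 and 1 to 12.

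*TCF3* (ENSG00000071564.17, chr19:1609290-1652615, minus strand), which encodes the E proteins E12 and E47, was abundant in all libraries. It stood at 66.1, 194.9 and 73.6 CPM in WT, 88.8 to 100.4 in CS16 and 83.7 to 106.4 in CS19, so that the clones lay between WT-2 and the other WT libraries. The log2 fold changes were -0.19 in CS16 and -0.25 in CS19 (Benjamini-Hochberg adjusted p = 0.717 and 0.645 in edgeR's quasi-likelihood test). Without WT-2 they turned positive, to 0.46 and 0.41, and passed the test (adjusted p = 0.000739 and 0.00283 in edgeR), so the sign changed with 1 library left out. The clones differed by 0.06 (standard error 0.0892, adjusted p = 0.657 in edgeR). By summed TPM, *TCF4* made up 0.0546% of *TCF3* and *TCF4* in WT, 14.9% ± 0.723 in CS16 and 11.5% ± 1.34 in CS19. This share depends on the exon lengths used, as given below.

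*PRRX1* (ENSG00000116132.12, chr1:170662728-170739421, plus strand) was scarce, with 19, 2 and 5 counts in WT, 7, 3 and 1 in CS16 and 0 in all CS19 libraries. It did not pass the filter on low counts in any comparison and was not tested. WT was at least 3.59-fold higher than CS19 against the floor of 3 counts per library, and the WT mean of 0.436 CPM rested on WT-1 at 0.937 CPM.

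Of the 10 factors, 9 passed the filter in each comparison. In CS16 against WT, 6 of them passed the test, 5 higher and 1 lower, where 55.6% of the 18611 genes tested passed (27% higher and 28.6% lower). In CS19 against WT 8 passed, 6 higher and 2 lower, where 52.9% of 18935 genes did (26.3% and 26.6%). With the 6 clone libraries as 1 group, 6 passed, 5 higher and 1 lower, where 63.7% of 19631 genes did (31.1% and 32.6%), and the share of the factors was thus close to that of all genes. Between CS16 and CS19, 6 passed, 4 higher and 2 lower in CS16, where 27.4% of 17538 genes did (14.7% and 12.7%). A change of 2 or more on the log2 scale, in addition, was met by *TWIST1*, *TWIST2* and *TCF4* in CS16 and in the joint comparison (27.1% and 26.9% of all genes), by these and *SNAI2* in CS19 (26.4%), and by *SNAI2* between the clones (1.13%). The comparisons with WT share the same 3 WT libraries, so their values stand side by side and are not independent of each other.

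The joint comparison hid the split in *SNAI2*, whose log2 fold change was 0.22 with a standard error of 0.997 (Benjamini-Hochberg adjusted p = 0.862 in edgeR's quasi-likelihood test). In a fit with the clones as separate groups, their mean against WT was -1.03 (adjusted p = 0.00157, edgeR), the opposite sign. The other values were 0.89 for *SNAI1* (adjusted p = 0.0838 in edgeR, and 0.0146 at 1.41 without WT-2 or 0.0454 at 1.03 without CS16-1), 1.10 for *SNAI3* (0.0466, lost without WT-1, WT-3, CS16-3 or any CS19 library at 0.059 to 0.17, and 0.00303 at 1.79 without WT-2), -1.22 for *ZEB1* (5.38e-05), 0.91 for *ZEB2* (0.00202), 5.16 for *TWIST1* (1.62e-06), 8.32 for *TCF4* (2.95e-09) and -0.25 for *TCF3* (0.47), and *TWIST2* was at least 22.4-fold higher (3.05e-06). The calls between the clones depended on the model: a fit that shared the spread of all 3 groups, WT included, gave folds close to those above (-0.92 for *SNAI1*, -0.89 for *SNAI3*, 0.52 for *ZEB2*, 0.81 for *TWIST1* and 0.51 for *TCF4*) but kept only *SNAI2* past the threshold, with edgeR adjusted p values of 0.0747 to 0.345 for these 5. Without WT-2 the factors past the test numbered 8 in the joint comparison, 9 in CS16 and 9 in CS19, and all genes past it 13633, 14098 and 14076, against 12506, 10342 and 10014 with WT-2.

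**Figure D2:**
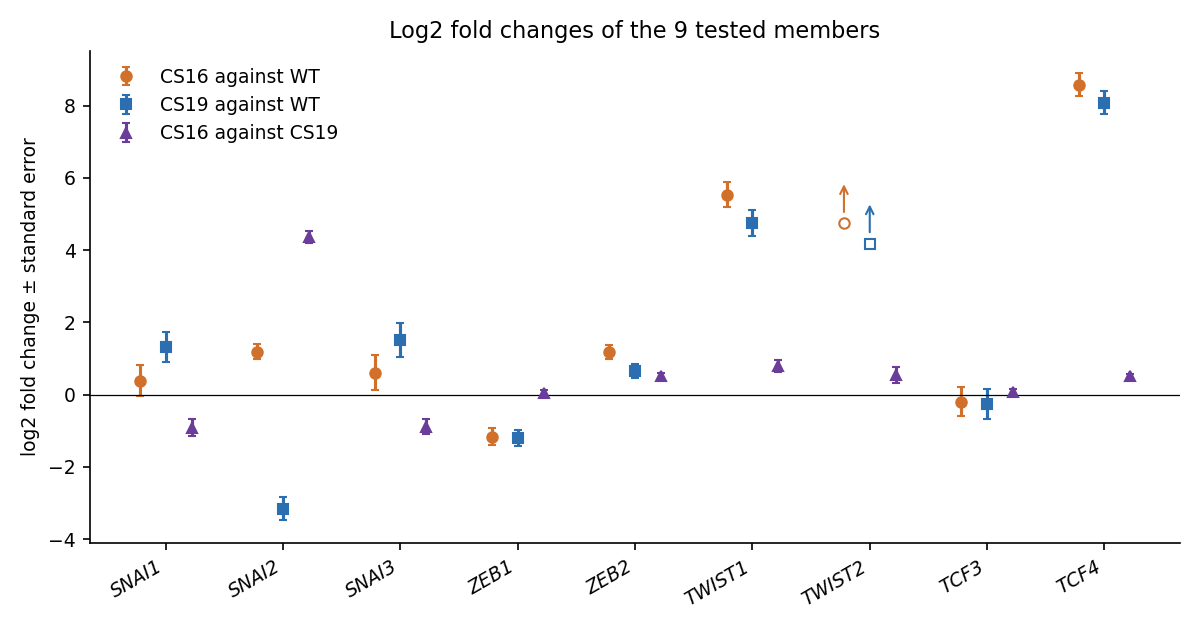
Log2 fold change with its standard error (y axis) of the 9 factors tested (x axis) for CS16 against WT, CS19 against WT and CS16 against CS19; open symbols with arrows are lower bounds for TWIST2, whose WT libraries had 0 counts. TCF4, TWIST1 and TWIST2 are above 4 in both clones against WT, and SNAI2 is at 1.18 in CS16 and -3.16 in CS19.

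The order of levels between the factors was read in TPM. In WT it ran from *TCF3* (60.4 ± 43.2 TPM) over *ZEB1* (40.6 ± 10.8) and *SNAI2* (32.2 ± 5.59), neighbours whose ranges overlapped, to *SNAI3* (2.73), *SNAI1* (2.58) and *ZEB2* (1.87), which overlapped among themselves, and then to *PRRX1* (0.176), *TWIST1* (0.170), *TCF4* (0.0227) and *TWIST2* (0). CS16 was led by *SNAI2* (70.4 ± 11.9 TPM), followed by *TCF3* (49.4 ± 9.24) and *ZEB1* (17.5 ± 4.19), all apart from each other. *TCF4* (8.62), *TWIST1* (7.90) and *TWIST2* (6.89) came next with overlapping neighbours, then *ZEB2* (3.99), *SNAI3* (3.89), *SNAI1* (3.08) and, apart, *PRRX1* (0.0697). CS19 was led by *TCF3* (46.0 ± 10.5 TPM) and *ZEB1* (16.4 ± 2.53), each apart from the next. Below them lay *SNAI3* (7.03), *TCF4* (5.88), *SNAI1* (5.83), *TWIST2* (4.61), *TWIST1* (4.35), *SNAI2* (3.42) and *ZEB2* (2.69), each overlapping its neighbour.

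TPM divided by the summed length of all annotated exons, which is 29166 bases for *TCF4* and 26111 for *ZEB2* and lowers these against a gene such as *SNAI1* with 1705. With the length of the canonical transcript instead (8041 bases for *TCF4*), *TCF4* in CS16 came to 10.0 CPM per kilobase and stood above *ZEB1* at 8.10. On this scale *TCF3* was at 20.2 in CS16, and *TCF4* and *TCF3* were at 7.02 and 19.3 in CS19. *ZEB2* was at 3.58 in CS16, and *ZEB1* and *ZEB2* were at 7.83 and 2.50 in CS19. The TPM shares of *TCF4* and *ZEB2* in the clones are thus lower than with this length.

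Genes with the most similar pattern were sought by Pearson's r of log2 CPM over the 9 libraries, for the 8 factors with a mean of at least 50 counts, which left out *SNAI1* and *PRRX1*. The points share the gap between WT and clones, so that high values of r are common, and r is given as a description. The patterns of *TCF4* and *GPRIN3* (r = 1.000) and *EPHA3*, an ephrin receptor gene (0.999), were closest, and these 2 genes had 3 counts or fewer in each WT library and 924 or more in each clone library. *TWIST2* was followed by *UNC119B* (0.999) and *FBXL21P* (0.999), and *TWIST1* by *WDR17* (0.999) and *PCYT1B* (0.999). *ZEB1* was closest to *RSRP1* (0.991) and *GCNT1* (0.990), and *ZEB2* to *KLHL41* (0.988) and *TIGD6* (0.980). *SNAI2* was closest to *ZNF804A* (0.993), which had 34 to 52 counts in CS16 and at most 1 in CS19, and to the RNA helicase gene *DDX46* (0.988). For *SNAI3* they were *DBP* (0.979), a circadian transcription factor gene, and *SLC29A2* (0.977), and for *TCF3* they were *DGKZ* (0.987) and *GRINA* (0.986), 2 genes that were also highest in WT-2.

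The genes around the factors were read in 7 lists. The first held the third E protein gene *TCF12* and the *ID1* to *ID4* genes, of which 3 rose and 1 fell in each clone, with median log2 fold changes of 1.04 in CS16 and 1.53 in CS19, beside -0.027 and -0.0026 over all genes tested, of which 55.6% and 52.9% passed. *ID2* had 15 to 19 counts in WT and 2205 or more in the clones, and *ID4* had 7 to 15 and 2008 or more. *ID4* was at 0.602 ± 0.179 CPM in WT, 101.9 ± 9.72 in CS16 and 101.0 ± 3.79 in CS19, a log2 fold change of 7.41 and 7.40 (Benjamini-Hochberg adjusted p = 4.8e-06 and 3.59e-06 in edgeR's quasi-likelihood test). On the log2 scale *ID3* rose by 1.04 and 1.53, *ID1* fell (-1.81 and -1.60), and *TCF12* did not pass (-0.39 and -0.36). Summed over the ID genes the level was 161 ± 61.8 TPM in WT, 331 ± 26.3 in CS16 and 360.1 ± 38.4 in CS19, with WT-2 at 232.

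Of 13 other factors described as driving EMT, 8 were tested in each clone. In CS16 5 rose and 3 fell, and in CS19 4 rose and 3 fell (medians 0.87 and 0.90), 8 and 7 of 8 against 55.6% and 52.9% of all genes. *FOXC1*, a forkhead gene, rose from 18.5 ± 1.02 CPM in WT to 122.6 ± 7.94 in CS16 and 196.2 ± 9.94 in CS19, and *SOX4* (log2 fold changes 1.55 and 1.67) rose as well. *SOX9* (-4.13 and -3.56) and *RUNX2* (-4.44 and -4.58) fell. *KLF8* went from 15 to 19 counts in WT to 0 in CS16, at least 6.46-fold lower, and to at most 1 count in CS19. The factors named as drivers of EMT thus moved in both directions.

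Of 16 epithelial factors described as opposing EMT, 8 were tested in CS16, 1 rising and 5 falling (median -2.77), and 9 in CS19, 2 rising and 5 falling (median -2.57). Of all genes, 27% rose and 28.6% fell in CS16, and 26.3% and 26.6% in CS19. *EHF*, an ETS factor of epithelia, had 2095 to 4642 counts in WT, 1 to 2 in CS16 and 0 in CS19, where it was at least 1600-fold lower. *KLF4* (log2 fold changes -2.88 and -2.96) and *ESRP2* (-2.66 and -2.57), a regulator of epithelial splicing, fell. *GRHL1*, a grainyhead gene, rose by 1.55 in CS16 and 3.16 in CS19.

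The 25 epithelial genes described as repressed by SNAI or ZEB factors did not move one way. In CS16 21 were tested, 4 rising and 12 falling (median -3.21), and in CS19 22 were tested, 6 rising and 12 falling (median -1.24), against 55.6% and 52.9% of all genes past the test in either direction. *CDH1* was low in all libraries, at 1.51 ± 0.478 CPM in WT, 3.79 ± 0.624 in CS16 and 4.11 ± 0.141 in CS19, and rose with log2 fold changes of 1.35 and 1.47 (standard errors 0.323 and 0.304, Benjamini-Hochberg adjusted p = 0.00946 and 0.0047 in edgeR's quasi-likelihood test). *OCLN*, which encodes the tight junction protein occludin, rose by 1.03 and 1.65, and *CGN*, for cingulin of the same junctions, by 2.50 and 2.74. *KRT18* fell from 562.7 ± 53.2 CPM in WT to 48.9 ± 0.543 and 69.5 ± 6.14. *CLDN4* went from 148.3 ± 16.7 CPM to 0.277 ± 0.102 and 0.231 ± 0.164, and *PKP3*, for the desmosome protein plakophilin 3, from 331 or more counts to at most 2.

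Of 20 mesenchymal readout genes, 18 were tested in each clone, and 5 rose and 11 fell in each (medians -2.21 and -1.95), where 28.6% of all genes fell in CS16 and 26.6% in CS19. The falling ones included *VIM*, for vimentin (-1.41 and -1.56), *FN1*, for fibronectin (-3.05 and -4.93), and *S100A4*, from 754.2 ± 183 CPM in WT to 1.297 ± 0.275 in CS16 and 1.82 ± 0.400 in CS19. The rising ones included *CDH2*, for N-cadherin, from 1.29 ± 0.824 CPM to 31.8 ± 0.886 and 82.7 ± 7.19, *SPARC* (6.38 and 5.99) and *COL3A1* (6.59 and 3.42). *CDH1* and *CDH2* thus both rose, *CDH2* to the higher level.

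The factors act with corepressors, and of 19 genes for these and for chromatin partners 5 rose and 5 fell in CS16 and 4 rose and 5 fell in CS19 (medians -0.34 and -0.39), shares near the 55.6% and 52.9% of all genes that passed. *HDAC1* and *HDAC2*, for histone deacetylases, rose by 1.13 and 1.24 in CS16 and by 1.00 and 1.14 in CS19, and *PRMT5*, for an arginine methyltransferase, by 1.64 and 1.26. *AJUBA*, for a LIM protein partner of SNAI proteins, fell (log2 fold changes -3.82 and -3.57), as did *LOXL2* (-4.79 and -4.75) and *RCOR1*, for CoREST (-0.65 and -0.60).

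SNAI, ZEB and TWIST proteins are short-lived, and 22 genes for kinases, ubiquitin ligases and deubiquitinases that act on them were read as a last list. Of 21 tested, 5 rose and 2 fell in CS16 and 6 rose and 2 fell in CS19 (medians 0.19 and 0.28), smaller shares than the 55.6% and 52.9% of all genes. *MDM2*, for a ubiquitin ligase, rose by 0.91 and 0.83, *BTRC*, for the ligase subunit that reads phosphorylated SNAI1, by 0.66 and 0.59, and *SIAH2* by 0.62 and 0.70. The other genes that rose in both clones changed more, *USP51* by 4.72 and 5.38 and *PRKD1*, with 0 to 1 count in WT, by 10.1 and 10.3. Both were picked after their values were seen. *CTDSP1*, for a small phosphatase, fell (-1.23 and -1.02), as did *LATS2*, a Hippo pathway kinase gene (-2.30 and -2.98). All list medians stayed the same with genes at 0 counts in a group set at their bound. Protein levels and stability were not measured in these files.

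Between CS16 and CS19, where 27.4% of all genes passed, 1 of 5 E protein and ID genes passed, 2 of 8 other drivers, 1 of 6 epithelial factors, 9 of 14 epithelial genes (1 higher and 8 lower in CS16), 10 of 15 mesenchymal genes (7 higher and 3 lower in CS16), 5 of 19 corepressor genes and 7 of 21 kinase and ligase genes. *FN1* was higher in CS16 by 1.88 on the log2 scale and *COL3A1* by 3.17, while *CDH2* (log2 fold change -1.39) and *OCLN* (-0.62) were lower.

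Of the factors, 7 overlap another annotated gene, 18 genes in all, and in 5 of them exon bases are shared with 8 of these genes. Pairs that overlap the exons of more than 1 gene were not counted, and *SNAI1*, *SNAI2* and *TWIST2* overlap no other gene. The pseudogene *SPTLC1P1* within *ZEB1* had 10 to 21 counts in WT and 1 to 6 in the clones, *TCF4-AS2* had 0 to 6 counts, *RNU6-1223P* within *TCF3* had 0 to 5, and *RPL21P126* and *MIR4529* within *TCF4* had 0.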

How the data were processed

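The authors trimmed the paired reads of the 9 rRNA-depleted stranded libraries with Trimmomatic (version 0.36), aligned them to GRCh38.p13 with STAR (2.7.2b, in passes over known and newly found junctions) and counted pairs per gene with featureCounts (Subread 2.0.0) on gencode release 38, without strand and without pairs that overlap several genes, per the labels and the methods. The deposited values were raw counts per gene, 1 column per library, with no normalization. Groups came from the labels, and 60463 of the 60708 genes were matched to a symbol.

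Counts were tested in R 4.3.3 with edgeR 4.0.16 (filterByExpr, TMM, quasi-likelihood test, Benjamini-Hochberg adjustment over all genes tested, threshold 0.05), for the 6 knockout against the 3 WT libraries, each clone against WT and CS16 against CS19, each in a fit of its own. The study's methods use DESeq2, run here as an alternative (1.42.0), and a log2 fold change of 2. The fits were tested on simulated counts first. Levels are CPM, or TPM from the deposited counts and exon lengths, and ratios to groups with few counts carry exact Clopper-Pearson intervals (95%). Totals were 19527195 to 28627777. The floor was fixed at 3 counts and turned into CPM with the scaled library sizes. No molecular identifiers were used, so intervals cover counting error only. Python 3.11.15 with scipy 1.17.1 was used for levels and figures. Alternatives were RLE and upper-quartile scaling, no filter, at least 10 counts in 3 libraries, leaving out the 100 highest genes or each library, glmTreat at a log2 fold change of 1, a replicate block and a shared fit.

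The factors, the lists and the naming rule were chosen with earlier results of these data known. Named were all factors, genes overlapping them, the 2 genes with the most similar pattern, *CDH1*, and of each list up to 3 genes per direction with the highest mean CPM among those past the threshold in both clones. One of the genes so named is not reported here. Reads, single exons and proteins were not analysed here.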

Additional observations from a re-analysis of the deposited data

Results flagged for a closer look

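Among the 6 libraries of the clones, CS16-2 stood apart in *TWIST2*, at 5.58 CPM against 2.43 to 3.58 in the others. It was the only such case among the 10 factors, where chance marks about 1 in 20 groups of values each time it is applied, and these 6 libraries pool clones with means of 4.21 and 2.86 CPM.

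Levels differed between CS16 and CS19 for 6 factors, by the direct test of the clones with edgeR, where 27.4% of 17538 genes passed. A fit that shared the spread of WT and both clones kept only *SNAI2* past the threshold. The log2 fold change of CS16 over CS19 was 4.36 for *SNAI2*, 0.795 for *TWIST1*, 0.51 for *ZEB2*, 0.50 for *TCF4*, -0.88 for *SNAI3* and -0.92 for *SNAI1*. Each of the 6 had 3 of 3 libraries of one clone above the other, as did *TWIST2*, which did not pass (adjusted p = 0.0788 in edgeR). The share of all genes with such separate ranges was not counted.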

How the results depend on the processing

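Of 567 recomputed log2 fold changes of single factors, 512 kept their direction and their side of the threshold, 40 lost the call, 6 gained it and 9 changed sign. The sign changed for *SNAI2* in the joint comparison (-1.03 in the shared fit, past the test at an edgeR adjusted p of 0.00157, -0.10, -0.06 and -0.04 without CS16-1, CS16-2 or CS16-3, in a range of -0.10 to 0.47 over left-out libraries), for *TCF3* without WT-2 (0.42 jointly, 0.46 in CS16, 0.41 in CS19, with lowest values of -0.52, -0.46 and -0.54 without WT-1) and with the replicate block in CS16 (0.0055), and for *ZEB1* between the clones without CS16-1 (-0.011, in a range up to 0.15). The cause was not tested.

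Under glmTreat, which asks for a change beyond a log2 fold change of 1, the factors past the test fell to 3 jointly, 3 in CS16, 4 in CS19 and 1 between the clones, and all genes past it to 6758, 5968, 5852 and 266. The shared fit left 1 factor and 654 genes between the clones, where its spread included WT. Leaving out 1 library gave 5 to 9 factors in CS19, the lowest without WT-3 or CS19-2, and 5 to 8 jointly. Deviations of same-numbered libraries had correlations of -0.21 to 0.19, with 1 of 9 pairs above 0.1, and those of other-numbered ones -0.21 to 0.22. With 3 libraries per group, these values do not settle whether the numbers pair libraries. With the replicate block, 3179 genes passed between the clones against 4814 without it, *SNAI3* jointly (adjusted p = 0.0562, edgeR) and *ZEB2* in CS19 (0.0506) were lost, and no other call changed. In CPM, 5 of 45 pairs of factors stood in another order than in TPM with ranges apart, in CS16 and in CS19 each, and none in WT. With canonical transcript lengths, chosen after seeing the data, there were 1 and 3. Without the filter *PRRX1* entered the fits, with an adjusted p (edgeR) of 0.00134 in CS19 against WT, 0.265 in CS16, 0.0458 jointly and 0.0253 between the clones. Depth limits *PRRX1*, and the WT side of *TWIST1*, *TWIST2* and *TCF4*, to counts near the floor.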

Other observations

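Some list genes, chosen here after their values were seen, split between the clones or were at 0 in WT. *CLDN1*, for the tight junction protein claudin 1, had 41, 31 and 42 counts in WT, 3, 4 and 5 in CS16 and 83, 68 and 94 in CS19. Like *SNAI2*, it thus differed from WT in opposite directions in the clones, but CS16 was the lower one, with a log2 fold change of CS16 over CS19 of -4.14 (standard error 0.311, Benjamini-Hochberg adjusted p = 7.94e-07 in edgeR's quasi-likelihood test). *GSC*, for the homeodomain factor goosecoid, had 0 counts in WT and 89 to 146 in the clones, at least 27.5-fold higher in CS16 and 31.7-fold in CS19. *PRKD1*, for a kinase that acts on SNAI1, had 0 to 1 count in WT and 515 to 933 in the clones.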
